A study of Homo sapiens with 4 samples.

Results

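The 10 genes described here belong to the antioxidant response that the transcription factor NRF2 controls, and they were followed in RNA-seq of HaCaT cells after knockdown of the m6A demethylase ALKBH5. They are NFE2L2, KEAP1, NQO1, HMOX1, GCLC, GCLM, TXNRD1, SRXN1, SLC7A11 and OSGIN1, taken by gene name from the 58735 genes of the tables. Each name matched 1 row, and all 10 had enough counts to be tested. HaCaT is an immortalised line of human keratinocytes. It was transfected with siRNA against ALKBH5 (siALKBH5, genotype given as ALKBH5 knockdown) or with control siRNA (siControl, genotype given as WT), and 2 libraries of poly-A RNA were sequenced per group. Both groups received siRNA with a lipid reagent in the same medium, so neither is an untransfected culture. The siRNA is a partial and transient model, which siRNA was used and how long after transfection the RNA was taken are not given in the labels, and nothing says that the libraries of a group came from separate cultures. The p-values below then measure only the spread between these libraries, which may be technical.

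NRF2, encoded by NFE2L2, is held at a low level by KEAP1, an adaptor that brings it to a ubiquitin ligase for degradation. When KEAP1 is modified by oxidants or electrophiles, NRF2 escapes, enters the nucleus, pairs with a small MAF protein and binds antioxidant response elements, short DNA sequences near its target genes. The targets make glutathione, reduce quinones and peroxides, and supply NADPH, and in skin the pathway is known for protection of keratinocytes from ultraviolet light and irritants. Because NRF2 is mainly set by protein turnover, its mRNA level and its activity are separate quantities, and only mRNA was measured here.

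The libraries held between 16017502 and 18837807 counts on genes, with TMM scaling factors between 0.9917 and 1.008. ALKBH5 itself fell to 55.5% of its control level (edgeR, adjusted p = 6.4e-15), in the direction its labels give. All 10 keratinocyte markers examined were present. Their summed level was 18270 to 18670 CPM, counts scaled by library size, in siControl and 23980 to 24050 in siALKBH5. KRT5 and KRT6A were among those that rose, and the directions of the other markers are not given here. The sum weighs abundant markers most, so it does not show a rise of each marker. The summed level of 5 fibroblast markers was between 17.9 and 21.1 CPM in all 4 libraries with COL1A2 and PDGFRB at 0, that of 4 melanocyte markers was at most 3.89 with TYR at 0, and that of 3 endothelial markers between 32.5 and 35.5. The share of counts on mitochondrial genes was 10.2% in each siControl library and 9.63% and 9.64% after knockdown. The part of these differences in the results was not tested. In such bulk RNA, a change in the number of cells that express a gene and a change in its RNA per cell cannot be told apart.

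The core of the antioxidant response element is written TGACNNNGC, and it was searched on both strands of the RefSeq promoters of GRCh38.p14, from 250 bases before to 50 after each annotated start. RefSeq promoters were matched for 8 of the 10 genes, all but HMOX1 and SLC7A11, with 11 starts in all. The core was present at 4 of these 11 promoters, of GCLM, KEAP1 and both starts of TXNRD1, against 13.3% of all 35116 promoters. The promoter of OSGIN1 held the AP-1 letters TGACTCA, which can overlap the core, and no match to the core itself. Of all promoters, 4.95% held these letters on either strand. These matches describe the letters only, and binding of NRF2 was not measured. The promoters with a match in the 120 bases before the start are shown because they include GCLM and OSGIN1, which rose, and KEAP1 and TXNRD1, which were not called. They are written 5′ to 3′ on the strand of the gene, the last base lies next to the start, and capitals mark the match.
GCLM (chr1:93909431-93909550, minus strand): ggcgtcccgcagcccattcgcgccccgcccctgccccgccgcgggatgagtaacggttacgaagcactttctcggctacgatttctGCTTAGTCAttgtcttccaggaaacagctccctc
KEAP1, downstream start (chr19:10502772-10502891, minus strand): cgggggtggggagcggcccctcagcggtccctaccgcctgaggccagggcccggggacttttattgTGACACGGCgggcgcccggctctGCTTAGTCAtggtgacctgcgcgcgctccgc
TXNRD1, upstream start (chr12:104215659-104215778, plus strand): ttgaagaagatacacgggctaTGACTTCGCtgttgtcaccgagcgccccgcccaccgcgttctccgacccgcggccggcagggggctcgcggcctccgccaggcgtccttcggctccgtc
TXNRD1, downstream start (chr12:104286912-104287031, plus strand): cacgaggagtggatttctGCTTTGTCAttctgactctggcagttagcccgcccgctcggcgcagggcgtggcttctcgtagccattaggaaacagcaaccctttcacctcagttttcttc
OSGIN1 (chr16:83953120-83953239, plus strand): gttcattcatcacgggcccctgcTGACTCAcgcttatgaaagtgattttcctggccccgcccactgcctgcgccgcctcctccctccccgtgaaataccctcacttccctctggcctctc

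GCLM and KEAP1 carry the same 9 letters GCTTAGTCA, which read as the core on the opposite strand. The match begins 34 bases before the start of GCLM and 31 bases before that of KEAP1. The downstream promoter of TXNRD1 holds GCTTTGTCA, beginning 102 bases before the start, and its upstream promoter holds TGACTTCGC, beginning 99 bases before it, with a further match across the start that is left in lower case. Of these 3 genes only GCLM was higher after knockdown at an adjusted p under 0.05, as given below. NQO1, GCLC, SRXN1 and NFE2L2 had no match to these letters in this window.

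After ALKBH5 knockdown, 4 of the 10 genes rose and 1 fell at an adjusted p under 0.05. The genes that rose were NQO1, GCLM, SLC7A11 and OSGIN1, with levels between 126% and 169% of the control. NFE2L2 fell to 91.7% of the control, and KEAP1, HMOX1, GCLC, TXNRD1 and SRXN1 were not called. Of the 15075 genes tested, 19.3% rose and 17.3% fell by the same rule. None of the 10 genes reached the cutoff in the methods of the study, which 2.92% of all genes tested passed. That cutoff is a log2 fold change of 1 or more in either direction with the same adjusted p. For genes that fell, a figure legend of the study gives P in place of FDR. With the unadjusted p of edgeR, again none of the 10 genes passed. Their median log2 fold change was 0.03, against -0.0081 over all genes tested. The groups did not overlap for 9 of the 10 genes, HMOX1 being the exception, and they did not overlap for 66.3% of all genes tested. The plot of CPM by library gives all 40 values.

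**Figure D1:**
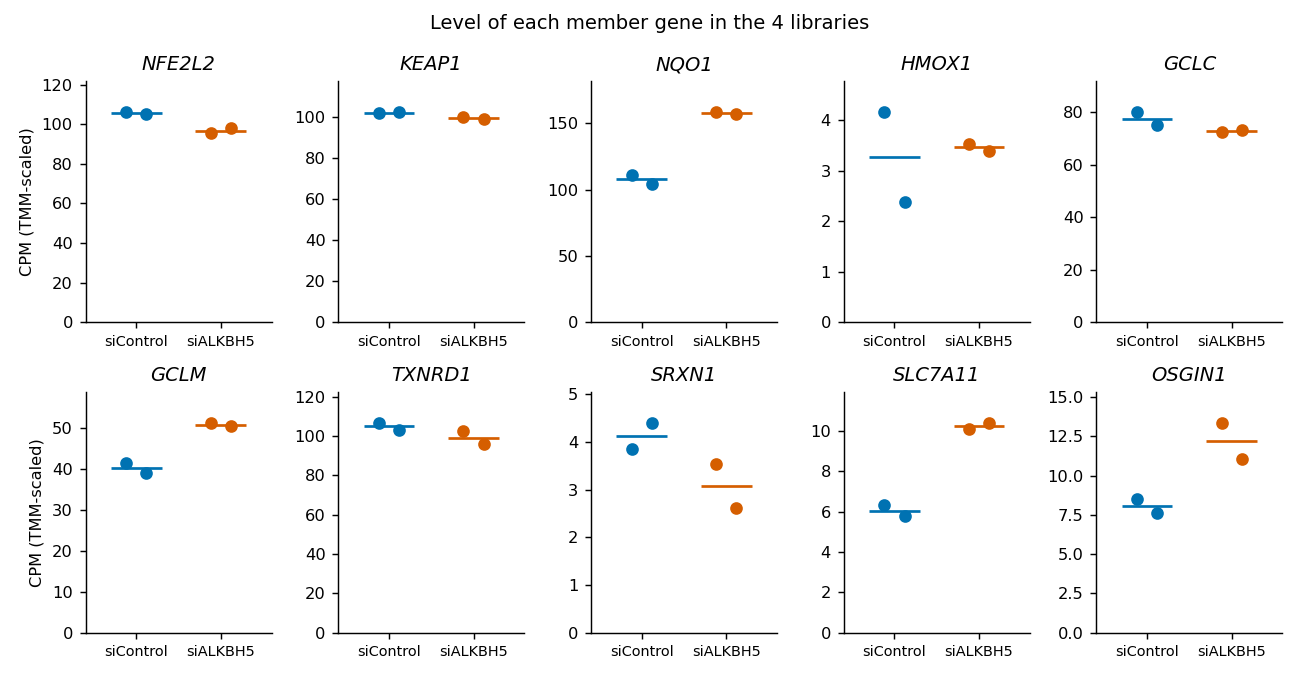
Level of each of the 10 genes in CPM after TMM scaling (vertical axis from 0, scaled per gene) in the 2 siControl and 2 siALKBH5 libraries, with points for libraries and a line for the group mean (n = 2). NQO1, GCLM, SLC7A11 and OSGIN1 have both siALKBH5 points above both siControl points, and HMOX1 is the only gene whose groups overlap.

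NFE2L2 and KEAP1 are the regulators of the pathway. NFE2L2 (ENSG00000116044, chromosome 2 of GRCh38 from 177227595 to 177392697, minus strand) had 105.9 and 105 CPM in the siControl libraries and 95.4 and 98.0 CPM in the siALKBH5 libraries. Both siALKBH5 libraries lay below both siControl libraries, by more than the gap within either group. The log2 fold change of NFE2L2 was -0.13 with a standard error of 0.04 (edgeR, adjusted p = 0.018). DESeq2 gave it an adjusted p of 0.13, and without siControl replicate 1, siControl replicate 2 or siALKBH5 replicate 1 the adjusted p by edgeR was 0.095, 0.063 and 0.15. Of the exon bases of NFE2L2, 20.9% are also annotated to another gene, mostly to AC019080.1 on the same strand, which had between 11 and 24 counts per library.

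KEAP1 (ENSG00000079999, chromosome 19 from 10486120 to 10503741, minus strand) had 101.9 and 102.1 CPM in siControl and 99.9 and 98.8 CPM in siALKBH5. The siALKBH5 values were again the lower ones, and the log2 fold change was -0.04, with an interval (95%) from -0.12 to 0.05 and an adjusted p of 0.53 by edgeR. The interval spans both directions and KEAP1 was not called, so no direction is given for it. Per length, the ratio of KEAP1 to NFE2L2 mRNA was 1.53 and 1.55 in siControl and 1.66 and 1.6 in siALKBH5. This scale divides NFE2L2 by 5979 bases and KEAP1 by 3761. In CPM, NFE2L2 was the higher of the pair in both siControl libraries and the lower in both siALKBH5 libraries. Which mRNA was more abundant in siControl thus depends on the length used. The difference of this ratio between the groups was not tested.

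NQO1 encodes the quinone reductase that is used most widely as a readout of NRF2. It lies on the minus strand of chromosome 16 from 69706996 to 69726951 (ENSG00000181019) and drew 1790 and 1879 reads in the control libraries against 2955 and 2582 after knockdown. These correspond to 111.1 and 104.4 CPM in siControl and 158.2 and 156.9 CPM in siALKBH5, so the groups were far apart and the siALKBH5 libraries nearly equal. NQO1 reached 146% of the control, which is 0.55 on the log2 scale with a standard error of 0.04 (edgeR, adjusted p = 2.5e-13). Its log2 ratio was between 0.50 and 0.60 in the 4 pairs of 1 siALKBH5 with 1 siControl library. An antisense gene, AC092115.2, shares 17.7% of the exon bases of NQO1, and it was at 0 in all 4 libraries.

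The next group of targets supplies glutathione, the main thiol antioxidant of the cell. Its rate-limiting step is carried out by glutamate-cysteine ligase, made of the catalytic subunit GCLC and the modifier subunit GCLM, which raises the activity of the former. GCLM (ENSG00000023909, chromosome 1 from 93885205 to 93909456, minus strand) had 41.5 and 39.2 CPM in siControl and 51.2 and 50.4 CPM in siALKBH5. It rose to 126% of the control (log2 fold change 0.34, standard error 0.06, adjusted p = 7.3e-05 by edgeR). Tested against a minimum fold of 1.2 instead of 0, GCLM had an adjusted p of 0.26, so an increase larger than that fold was not shown.

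GCLC (ENSG00000001084, chromosome 6 from 53497341 to 53616970, minus strand) had 80.0 and 75.2 CPM in siControl and 72.7 and 73.2 CPM in siALKBH5. Its log2 fold change was -0.09 (interval from -0.19 to 0.01, adjusted p = 0.17 by edgeR). The interval spans both directions and GCLC was not called, so no direction is given for it. Per length, GCLM was present at 0.828 and 0.831 times the level of GCLC in siControl and at 1.12 and 1.10 times in siALKBH5. The ratio thus rose above 1 only on the scale per length, which divides GCLC by 8646 exon bases of 15 annotated transcripts and GCLM by 5420 bases of 4. In CPM, GCLC was the higher of the pair in all 4 libraries, and which subunit mRNA was more abundant depends on the length used. With 2 libraries against 2, an exact two-sided permutation test of this ratio cannot give a p below 0.333.

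SLC7A11 encodes xCT, the transporter that brings in cystine for glutathione synthesis in exchange for glutamate, and it is a target of ATF4 as well as of NRF2. It lies on the minus strand of chromosome 4 from 138164097 to 138242349 (ENSG00000151012) and had few reads, 102 and 104 in the control libraries against 189 and 171 after knockdown. Its levels were 6.33 and 5.78 CPM in siControl and 10.1 and 10.4 CPM in siALKBH5, with no overlap. SLC7A11 had the largest increase of the 10 genes, to 169% of the control (log2 fold change 0.76, standard error 0.15, adjusted p = 8.1e-05 by edgeR). The interval of this log2 fold change, from 0.47 to 1.06, overlaps those of NQO1 and OSGIN1, and differences between the genes were not tested.

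TXNRD1 and SRXN1 belong to the thioredoxin branch, and neither was called. TXNRD1, the cytosolic thioredoxin reductase that returns oxidised thioredoxin to its active form, lies on the plus strand of chromosome 12 from 104215779 to 104350305 (ENSG00000198431). It had 106.6 and 103.3 CPM in siControl and 102.5 and 96.0 CPM in siALKBH5. The difference between the groups was of the size of the spread within siALKBH5, and the log2 fold change was -0.08 (interval from -0.17 to 0.01, adjusted p = 0.17 by edgeR). The upper end of this interval lies below the lower ends of NQO1, GCLM, SLC7A11 and OSGIN1.

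SRXN1 encodes sulfiredoxin, which repairs over-oxidised peroxiredoxins. It lies on the minus strand of chromosome 20 from 646615 to 653370 (ENSG00000271303) and drew 62 and 79 reads in the control libraries against 66 and 43 after knockdown. Its level was 3.85 and 4.39 CPM in siControl and 3.53 and 2.61 CPM in siALKBH5, lower in both knockdown libraries, with a log2 fold change of -0.42 and a wide interval from -0.88 to 0.04 (adjusted p = 0.16 by edgeR). Another annotated gene on the same strand, AL121758.1, shares 85.0% of the exon bases of SRXN1, so reads from most of the gene could be assigned to either and the counts of SRXN1 are uncertain. AL121758.1 itself drew 2 and 1 reads in the control libraries against 0 and 6 after knockdown, and how reads in shared bases were counted is not given in the sources used here.

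HMOX1 encodes heme oxygenase 1, which breaks down heme to biliverdin, iron and carbon monoxide and is repressed by BACH1. It lies on the plus strand of chromosome 22 from 35380361 to 35394214 (ENSG00000100292) and drew 67 and 43 reads in the control libraries against 66 and 56 after knockdown. At 4.16 and 2.39 CPM, the siControl libraries differed more from each other than the groups did, and the siALKBH5 libraries lay between them at 3.53 and 3.40 CPM. The log2 fold change was 0.10 with an interval from -0.40 to 0.60 (adjusted p = 0.80 by edgeR), and it was 0.54 without siControl replicate 1 and -0.26 without siControl replicate 2. No direction can be read for HMOX1 at this depth, and an increase as large as that of NQO1 lies inside the interval.

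OSGIN1, oxidative stress induced growth inhibitor 1, is a target of NRF2 that has been tied to cell growth and death. It lies on the plus strand of chromosome 16 from 83948282 to 83966332 (ENSG00000140961), with 137 reads in each control library against 249 and 182 after knockdown. The level was 8.50 and 7.61 CPM in siControl and 13.3 and 11.1 CPM in siALKBH5, so the groups did not overlap although the siALKBH5 libraries lay further apart than for the other genes that rose. OSGIN1 rose to 151% of the control (log2 fold change 0.60, standard error 0.14, adjusted p = 0.00064 by edgeR). The log2 fold change was 0.46 without siALKBH5 replicate 1 and 0.73 without siALKBH5 replicate 2, and the gene was called in both cases. Another gene, AC009119.2, shares 13.9% of its exon bases and had at most 8 counts.

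**Figure D2:**
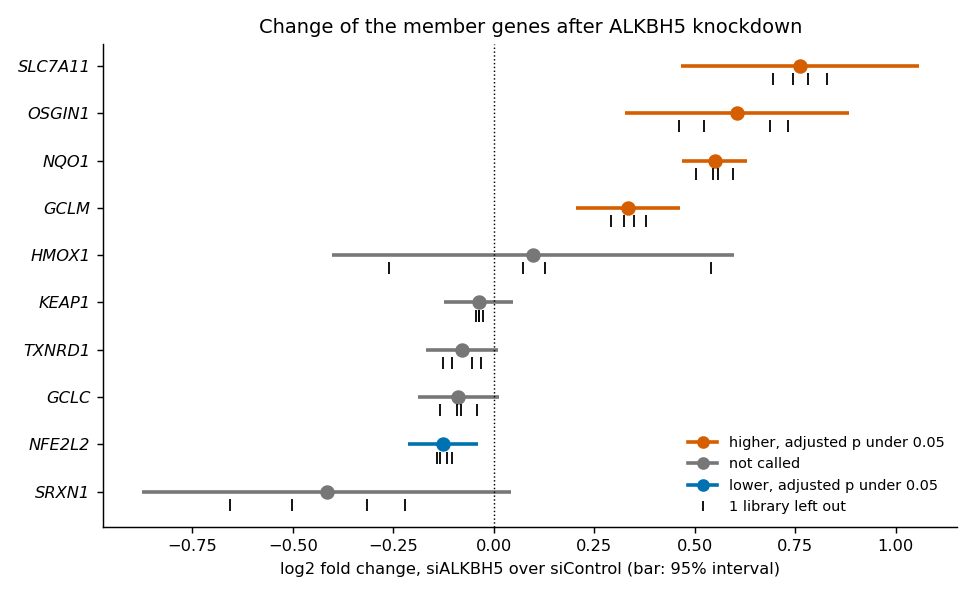
Log2 fold change of each gene, siALKBH5 over siControl (horizontal axis), with the 95% interval of the quasi-likelihood model as a bar and the 4 values with 1 library left out as ticks under it. The bars of SLC7A11, OSGIN1, NQO1 and GCLM lie above 0, that of NFE2L2 just below it, and the other 5 cross it, with HMOX1 and SRXN1 the widest.

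To compare the genes with each other, counts were divided by gene length and scaled to a common total (TPM). NQO1 was the most abundant, with 95.6 ± 4.03 TPM (SD, n = 2) in siControl and 138.7 ± 1.06 in siALKBH5. KEAP1 with 78.3 ± 0.222, NFE2L2 with 50.9 ± 0.229 and TXNRD1 with 45.2 ± 0.954 TPM in siControl followed, then GCLC with 25.9 ± 1.09 and GCLM with 21.5 ± 0.848. The remaining genes were low in siControl, OSGIN1 at 6.72 ± 0.514, SRXN1 at 4.41 ± 0.417, HMOX1 at 3.93 ± 1.495 and SLC7A11 at 1.81 ± 0.114 TPM. The ranges of neighbours in this order did not overlap in siControl except those of SRXN1 and HMOX1. The gap from HMOX1 to SLC7A11 was smaller than the range of HMOX1. In CPM, NQO1, TXNRD1 and NFE2L2 overlapped in siControl, between 103.3 and 111.1, and KEAP1 lay just below them at 101.9 and 102.1. The order of these genes in siControl thus depends on the length used. In siALKBH5 the order per length differed in that GCLM passed GCLC and HMOX1 passed SRXN1, and the ranges of SRXN1 and SLC7A11 overlapped. The place of SRXN1 is uncertain, since most of its exon bases are shared with AL121758.1. On this scale per length, the increases were found both at the most abundant gene, NQO1, and at the least abundant, SLC7A11. In CPM, SLC7A11 lay above HMOX1 and SRXN1 in all 4 libraries, so its last place depends on the length used.

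**Figure D3:**
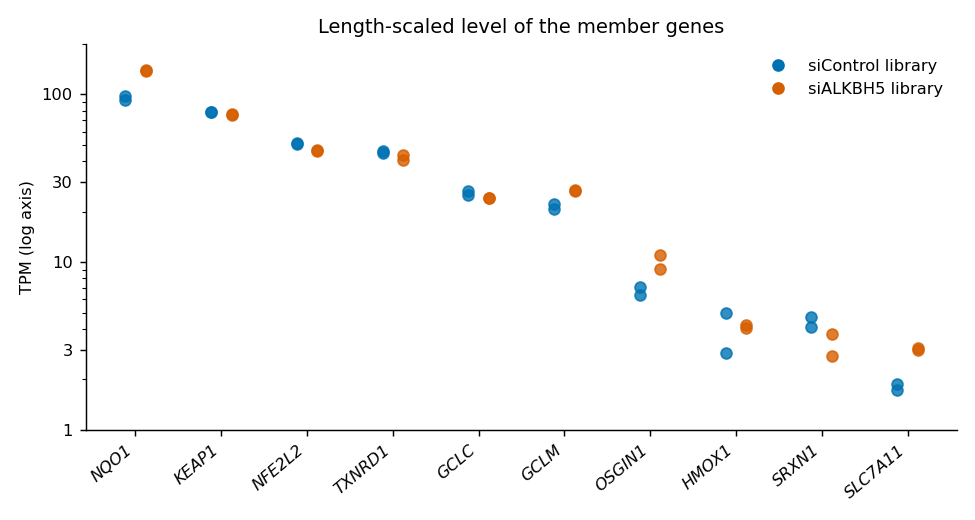
TPM of the 10 genes on a log axis, ordered by their mean over the 4 libraries, with 1 point per library. In siALKBH5 the means span from 3.05 TPM for SLC7A11 to 138.7 TPM for NQO1, and GCLC and GCLM exchange their places between the groups on this scale per length.

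Other genes around NRF2 were grouped by role. Of 13 regulators and partners of NRF2, 2 rose, 2 fell and 9 were not called, with a median log2 fold change of 0.05. BACH1, the repressor that competes with NRF2 for the same elements, fell from 35.5 and 39.0 CPM in siControl to 26.4 and 27.7 CPM in siALKBH5 (log2 fold change -0.47, edgeR, adjusted p = 8.6e-06). MAFG, a small MAF protein with which both pair, rose from 39.4 and 36.9 to 48.9 and 49.1 CPM (log2 fold change 0.36, adjusted p = 3.2e-05). DPP3, a peptidase that binds KEAP1, rose by 0.22 on the log2 scale, and SQSTM1, the autophagy adaptor p62 that also binds KEAP1, fell by 0.096.

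NADPH feeds NQO1 and both the glutathione and the thioredoxin reductases. Of 9 NADPH-generating enzymes and their pathway, 6 rose, 1 fell and 2 were not called, with a median log2 fold change of 0.32. ME1, the cytosolic malic enzyme, rose from 35.9 and 33.5 CPM to 62.1 and 59.0 CPM (log2 fold change 0.81, adjusted p = 2.5e-12 by edgeR). RPE, an epimerase of the pentose phosphate pathway, fell by 0.23 on the log2 scale.

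Of 20 enzymes of carbonyl and drug metabolism, 11 rose, 2 fell and 7 were not called, with a median of 0.26. The largest increase was that of AKR1B10, an aldo-keto reductase, from 17.4 and 18.2 CPM to 37.7 and 38.8 CPM (log2 fold change 1.10, standard error 0.08, adjusted p = 4.3e-13 by edgeR). It was the only gene of this list past a log2 fold change of 1, and like the other members of the AKR1 family it has close copies between which reads can be shared, so its value is uncertain. CYP1A1, a cytochrome P450, rose from 2.79 and 2.78 CPM to 5.25 and 5.53 CPM (log2 fold change 0.95, adjusted p = 0.00042 by edgeR). CYP1B1 and ALDH3A1 fell by 0.17 and 0.15.

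The 30 glutathione enzymes and transporters included 25 that could be tested, of which 10 rose, 5 fell and 10 were not called, with a median of 0.13. GGT1, which breaks glutathione down outside the cell, rose from 18.2 and 18.5 CPM to 28.4 and 27.8 CPM (log2 fold change 0.61, adjusted p = 7.4e-07 by edgeR). GPX1, the cytosolic glutathione peroxidase, rose from 89.6 and 91.8 CPM to 131.9 and 139.8 CPM (log2 fold change 0.58, adjusted p = 3.3e-13). GPX3, a secreted peroxidase, drew 30 and 33 reads in the control libraries against 16 in each after knockdown (log2 fold change -1.01, adjusted p = 0.029), and MGST2 fell by 0.33.

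Of 14 thioredoxin and peroxiredoxin genes, 7 rose, 3 fell and 4 were not called, with a median of 0.10. TXN, thioredoxin itself, rose from 443.1 and 434.5 CPM to 637.5 and 655.1 CPM (log2 fold change 0.56, standard error 0.02, adjusted p = 2.5e-19 by edgeR). TXNIP, which binds and inhibits thioredoxin, fell from 1503 and 1497 CPM to 947 and 939.7 CPM (log2 fold change -0.67, standard error 0.02, adjusted p = 2.0e-24). TXNRD3 rose by 0.71 and SESN3, a sestrin, fell by 0.45. Thioredoxin and its inhibitor thus moved apart while the reductase TXNRD1 was not called.

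Of 11 tested heme and iron genes, 5 rose, 1 fell and 5 were not called, with a median of 0.04. Ferritin light chain, FTL, rose by 0.31 from 653.0 and 652.7 CPM to 801.6 and 818.5 CPM, and FECH, the last enzyme of heme synthesis, rose by 0.30. Ferritin heavy chain, FTH1, fell by 0.083 (adjusted p = 9.9e-05 by edgeR). Both ferritins, TXN and GPX1 have processed pseudogenes that can take part of their reads. Of the superoxide dismutases and catalase, with CCS, the copper chaperone of SOD1, 4 genes were tested. SOD1 rose by 0.42, CCS fell by 0.395, SOD2 fell by 0.23 and CAT fell by 0.076 (adjusted p = 0.042 for CAT by edgeR), with a median of -0.15 for the list. SOD2 is listed under 2 identifiers, of which 1 was tested.

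Because SLC7A11 is shared with the ATF4 response, 14 genes of that response were examined as well. Of 12 tested, 6 rose, 2 fell and 4 were not called, with a median of 0.13. TRIB3 rose from 56.5 and 59.0 CPM to 88.1 and 88.5 CPM (log2 fold change 0.61, adjusted p = 5.2e-12 by edgeR) and PSAT1, an enzyme of serine synthesis, by 0.46. DDIT4 and DDIT3, both stress genes downstream of ATF4, fell by 0.39 and 0.36. ATF4 mRNA itself had a log2 fold change of 0.0054 (edgeR, adjusted p = 0.92).

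**Figure D4:**
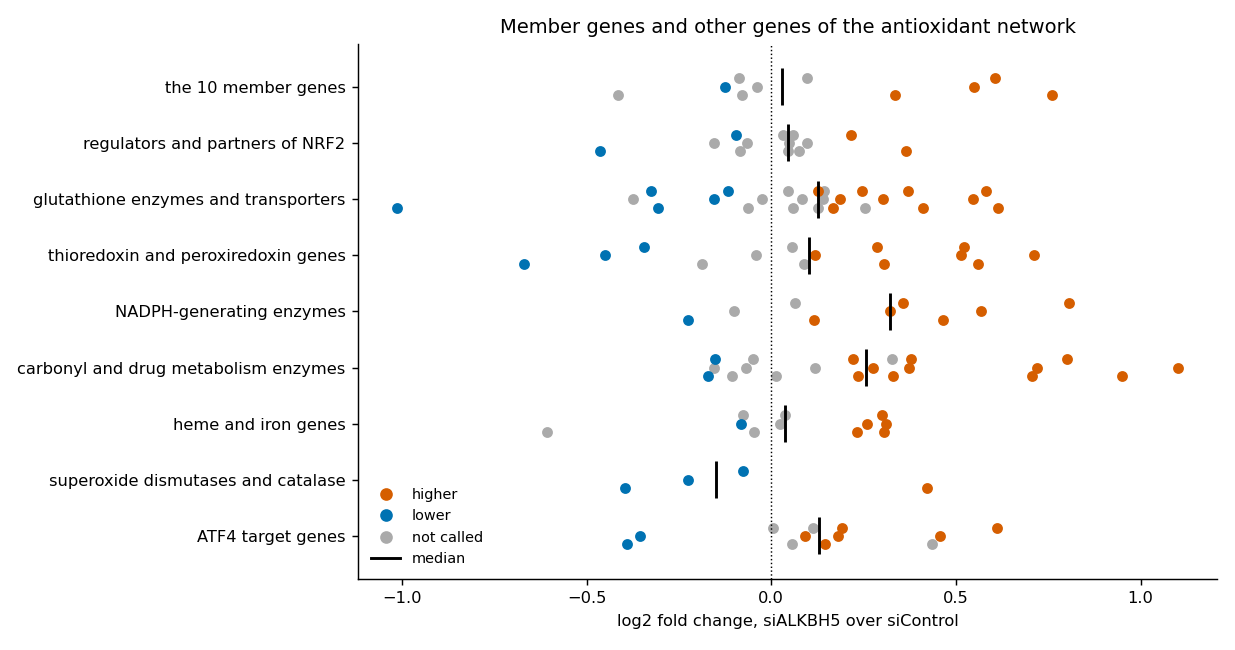
Log2 fold change of every tested gene in the 10-gene group and in the 8 lists by role (rows), coloured by its call at an adjusted p under 0.05, with a bar for the median. The NADPH-generating enzymes have the highest median, 0.32, and genes that rose and genes that fell occur in each row.

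Read against the 19.3% of all genes tested that rose and the 17.3% that fell, the lists differ in their counts, and no test of the lists was made. The lists were written from the known roles of the genes and share SESN2.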

How the data were processed

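RNA-seq of 2 siControl and 2 siALKBH5 libraries of HaCaT cells was analysed. The authors deposited raw counts per gene together with FPKM, 1 table for each siControl and siALKBH5 pair. The FPKM that the authors deposited were scaled within each table and were not used. The log2 fold changes and p-values that the authors deposited compare single libraries and were not used either. The submitters' processing notes name CASAVA, HISAT2 2.0.5, featureCounts 1.5.0-p3, DESeq2 1.20.0 and hg38. The use of strand and of reads that map to several places is not given in the sources used here. Gene identifiers, lengths and coordinates are from the deposited tables, and exons from GENCODE 29 on GRCh38.

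The counts of all 4 libraries were joined by gene identifier. The quasi-likelihood test of edgeR 4.0.16 (R 4.3.3) was run after filterByExpr and TMM scaling, with no covariates and Benjamini-Hochberg adjustment over 15075 genes. DESeq2, which the methods of the study name, was run as an alternative (version 1.42.0). Calls were made below an adjusted p of 0.05. Intervals are 95% intervals of the same model. CPM are scaled by TMM, and TPM use the listed gene lengths, which equal the exon bases of GENCODE 29 for all 10 genes. The fits were tested on simulated data. Libraries of a group differed beyond counting noise for 12.2% and 13.2% of genes, against 47.9% to 49.8% between groups. They were thus not copies of each other and were kept as separate libraries, which does not show that they came from separate cultures. The common coefficient of variation beyond counting noise in the edgeR fit was 0.0253.

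The 10 genes and the lists were chosen with earlier results of these data known. Genes named from a list are the 2 with the largest change in each direction among those called with a mean CPM of at least 1. KRT5, KRT6A, ATF4 and CAT were named after their values were seen. Coordinates are those of GRCh38. A gene that this rule names and a list of markers are not reported here.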

Additional observations from a re-analysis of the deposited data

How the results depend on the processing

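Over 12 alternatives (DESeq2, a test against a fold of 1.2, 2 other scalings, 2 other filters, the unadjusted p, the replicate block and each library left out), 113 of the 120 values of the 10 genes kept their direction and their side of the threshold. The exceptions were NFE2L2 in 5 cases, GCLM against a fold of 1.2 (0.34, adjusted p = 0.26) and HMOX1, whose log2 fold change was -0.26 without siControl replicate 2 and 0.54 without siControl replicate 1. NQO1, SLC7A11 and OSGIN1 were called in all of them, with log2 fold changes of 0.50 to 0.60, 0.69 to 0.83 and 0.46 to 0.73 with 1 library left out.

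The 1 lower gene became 0 with DESeq2 and against a fold of 1.2, and ranged from 0 to 1 with 1 library left out. The cause was not tested. Against a fold of 1.2, the higher genes among the 10 numbered 3 instead of 4. In the lists, the called genes numbered 1 of the regulators, 5 of glutathione and 7 of the thioredoxin and peroxiredoxin genes. They numbered 4 of NADPH, 4 of carbonyl metabolism, 1 of heme and iron, 1 of the dismutases and catalase, and 3 of the ATF4 list. This test asks for a larger change by construction. Over all genes, 2913 higher and 2610 lower became 2052 and 1431 with DESeq2 and 883 and 473 against a fold of 1.2. The 440 past the cutoff in the methods of the study became 193 and 281 in the same order. The 4 calls among the dismutases and catalase became 3 with DESeq2, with DESeq2 size factors, with no filter and with any library left out. The order of the 10 genes by level was not tested against another gene length. In the 250 bases before the start only, GCLM, KEAP1 and TXNRD1 also held the core.

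Both groups have 1 library titled as replicate, and these libraries were deposited together as a pair. Nothing in the labels says that they were prepared together. Deviations of the like-named libraries from their group means had a correlation of 0.107 over 9259 genes, which share libraries and are not replicates. With the replicate block, 4 of the 10 genes were higher and 1 was lower, as without it. With 1 library left out, the lone library of a group is assumed to vary like the other group. Low counts limit HMOX1 and SRXN1, with at most 79 in a library. For SRXN1 the count itself is uncertain, since most of its exon bases are shared with AL121758.1.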
